A study of Mus musculus with 8 samples.

Results

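Primary mouse vascular smooth muscle cells that overexpressed THOC5 were compared after culture in osteogenic medium and in growth medium, with 2 libraries in each group, over every gene of the deposited expression table. THOC5 is a subunit of the THO complex, which couples transcription to the export of messenger RNA. Of the 8 libraries in the table, 4 entered this comparison, and 22575 of 27249 genes had at least 1 normalized count in at least 2 of the 8 libraries and were tested. The other 4 libraries came from cells of the same kind that overexpressed GFP and carried the genotype label WT, with 2 in osteogenic and 2 in growth medium. The labels call the treatment osteogenic medium, and the design text speaks of inorganic phosphate for 6 days. The RNA was polyadenylated. The labels name no vector, promoter, mouse strain or age, and they do not say whether replicates were separate cultures or animals, so p-values measure only the spread between these libraries, which may be technical.

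Vascular smooth muscle cells are contractile cells of the artery wall that can turn towards a bone-forming state, and high phosphate is a common way to drive that change in culture. Most of the genes described here belong to the type I interferon system. In it, sensors of foreign or misplaced nucleic acid switch on the interferon beta gene, and the secreted protein binds the IFNAR1 and IFNAR2 receptor on the same or neighbouring cells. The kinases JAK1 and TYK2 then act on a complex that holds STAT2 and IRF9 and binds a short DNA motif, the interferon-stimulated response element (ISRE), in front of many antiviral genes. Interferon gamma acts through another motif, the gamma-activated site (GAS).

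The libraries held 7058681 to 10581042 recovered reads in genes, and the 4 THOC5 libraries 10222637 to 10581042, so depth was nearly equal within the comparison. A count of 0 allowed up to 3 reads, equal to 2.59 to 3.99 normalized counts depending on the library, and such limits cover counting error only. Levels are the deposited normalized counts, replicate 1 before replicate 2. Thoc5, the overexpressed gene, had 1780.2 and 1937 normalized counts in THOC5 osteogenic libraries, against 2155 and 1406 in THOC5 growth libraries, and 649.5 and 615 in GFP osteogenic libraries, against 458 and 471 in GFP growth libraries. Every THOC5 library therefore lay above every GFP library, as labelled, and Thoc5 itself passed no threshold between the media in THOC5 cells (log2 change 0.09, adjusted p = 0.96). As a check of the smooth muscle label, the 26 tested contractile genes had a summed level of 98898 and 105273 normalized counts in THOC5 osteogenic libraries, against 117597 and 111297 in THOC5 growth libraries, with Acta2, smooth muscle actin, between 20106 and 25293 and Myh11, the myosin of mature smooth muscle, between 95.4 and 158. Of markers of other cells only Ly6a, on the fibroblast list, and Bst2, on the plasmacytoid dendritic cell list, passed between the media. The summed macrophage markers were 963 and 1141 in THOC5 osteogenic libraries, against 1234 and 1052 in THOC5 growth libraries. Of these markers Adgre1 and Itgam reached at most 1.79 and 0.909 normalized counts in any library. Other markers of the list therefore carried the sum, and the low values of Adgre1 and Itgam do not show that macrophage markers were absent. Summed fibroblast markers, many of them shared with smooth muscle, were 26294 and 27605 in THOC5 osteogenic libraries, against 28743 and 28709.7 in THOC5 growth libraries, so these values do not set the cells apart from fibroblasts. T and NK cell markers summed to 0 and 3.75 in THOC5 osteogenic libraries, against 1.93 and 0 in THOC5 growth libraries.

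In THOC5 cells 122 of 22575 genes (0.540%) passed an adjusted p of 0.05 in limma, which was fitted to log2(normalized count + 1) over all 8 libraries with Benjamini-Hochberg adjustment. The change was almost entirely upward: 120 genes rose (0.532% of those tested) and 2 fell (0.00886%). Of the 122, 69 changed by at least 2-fold, and in all 122 both libraries of each medium lay beyond both of the other. With 2 libraries in each medium a call favours such separation. Here and for single genes below it therefore adds no support to the call, and its share over all tested genes was not counted. The median log2 change over all tested genes was -0.01. In bulk RNA more cells of a type and more RNA per cell cannot be told apart. The count models put the total at 159 (0.704%) in edgeR's quasi-likelihood test, with 144 higher (0.638%) and 15 lower (0.0664%). DESeq2 gave 150 of 13384 genes (1.12%), with 133 higher (0.994%) and 17 lower (0.127%), and both tests used the recovered reads. The authors' deposited table called 149 genes at the same threshold, of which 121 were also called here, all with the same sign.

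The number of calls leaned on single libraries. With limma, leaving out 1 library in turn gave 8 to 106 calls, with 8 when either GFP growth library was left out and 14 or 18 without THOC5 osteogenic replicate 1 or 2, whereas edgeR gave 74 to 168 and limma on genes averaging at least 10 normalized counts 69 to 170. Of the 120 risen genes 7 (Ccl5, H2-K1, Ifi208, Irf7, Isg15, Ly6e and Oas1a) passed the threshold in 34 of 35 alternative settings, failing only where the 4 THOC5 libraries were fitted by themselves.

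**Figure D1:**
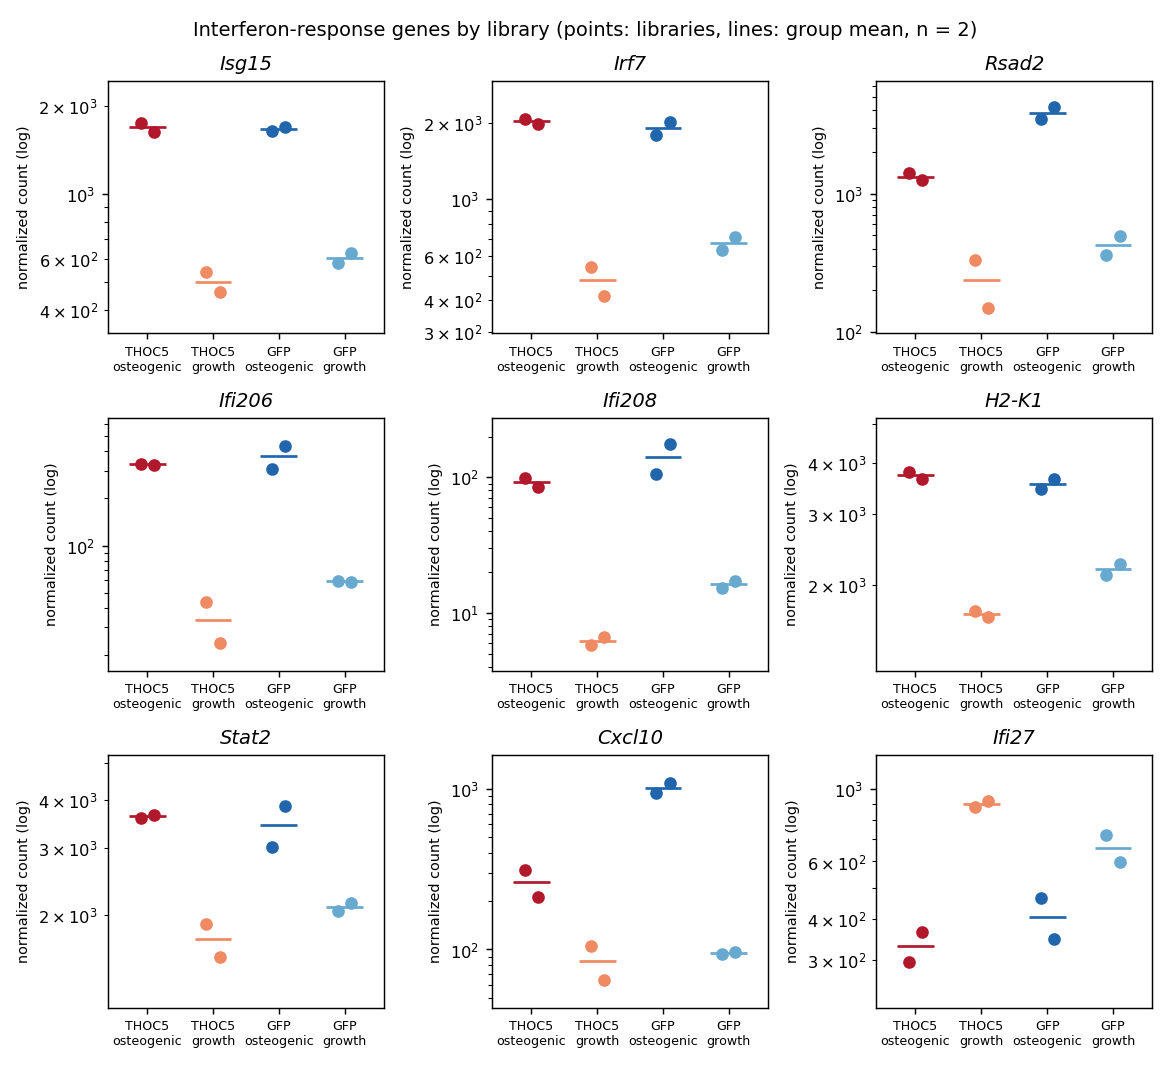
Normalized counts (log axis) of single genes in each library, with THOC5 osteogenic left of THOC5 growth and GFP osteogenic left of GFP growth; each point is 1 library and each line a group mean. The 2 THOC5 osteogenic points of Isg15 sit at 1756 and 1637, above the THOC5 growth points at 539.7 and 463, and those of Ifi27 lie below.

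The DNA just ahead of the start sites of many risen genes carried the ISRE core. The 250 bases before the start are printed for 4 risen genes with the motif and for H2-K1, a risen gene without it, from RefSeq sequence of GRCm38.p6, each 5′ to 3′ in the direction of transcription. Capitals mark the ISRE core as searched, GAAANNGAAA or TTTCNNTTTC on either strand. They lie at chr4:156200819-156201068 on the minus strand (Isg15), chr12:26456453-26456702 on the minus strand (Rsad2), chr1:173491319-173491568 on the minus strand (Ifi206), chr19:34640639-34640888 on the plus strand (Ifit1) and chr17:34000348-34000597 on the minus strand (H2-K1).
Isg15: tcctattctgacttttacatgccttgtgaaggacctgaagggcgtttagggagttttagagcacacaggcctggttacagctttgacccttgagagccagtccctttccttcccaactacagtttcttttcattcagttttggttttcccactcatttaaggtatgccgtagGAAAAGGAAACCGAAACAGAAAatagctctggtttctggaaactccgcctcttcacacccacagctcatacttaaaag
Rsad2: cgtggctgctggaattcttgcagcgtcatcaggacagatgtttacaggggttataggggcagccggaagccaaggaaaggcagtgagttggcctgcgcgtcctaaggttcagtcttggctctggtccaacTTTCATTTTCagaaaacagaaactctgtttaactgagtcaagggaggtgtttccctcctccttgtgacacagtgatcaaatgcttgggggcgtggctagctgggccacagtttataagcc
Ifi206: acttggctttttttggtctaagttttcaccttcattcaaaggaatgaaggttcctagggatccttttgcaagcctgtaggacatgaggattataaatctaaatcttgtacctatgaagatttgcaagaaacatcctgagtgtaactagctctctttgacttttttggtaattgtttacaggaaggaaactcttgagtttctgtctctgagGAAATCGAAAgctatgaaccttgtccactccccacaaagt
Ifit1: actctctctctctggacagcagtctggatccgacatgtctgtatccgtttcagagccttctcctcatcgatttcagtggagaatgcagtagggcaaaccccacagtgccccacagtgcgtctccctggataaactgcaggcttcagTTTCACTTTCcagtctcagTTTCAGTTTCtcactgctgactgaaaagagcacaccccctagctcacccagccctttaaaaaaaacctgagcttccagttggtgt
H2-K1: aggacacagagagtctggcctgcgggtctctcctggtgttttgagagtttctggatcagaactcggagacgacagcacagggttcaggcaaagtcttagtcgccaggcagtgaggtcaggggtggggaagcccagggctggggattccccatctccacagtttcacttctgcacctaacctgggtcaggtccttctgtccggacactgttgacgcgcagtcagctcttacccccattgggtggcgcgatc
Isg15 held 3 overlapping matches, the first bases of which stood 78, 72 and 66 bases before the start. Ifit1 held 2, at 104 and 85 bases before it, Rsad2 held 1 at 120 and Ifi206 held 1 at 40.

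A window of 300 bases (250 before to 50 after the start) was available for 93 of the 120 risen genes, and 51 of them (54.8%) held the ISRE core. The core stood in 494 of 13355 tested genes with a window (3.7%) and in 3.44% of all 32851 windows, a share per window and not per gene. Among genes that rose at least 2-fold the share was 31 of 49 (63.3%), and among those that rose less it was 20 of 44 (45.5%). Of the genes that rose in GFP cells but were not called in THOC5 cells, 60 of 1746 with a window held it (3.44%). The GAS core, TTCNNNGAA, which reads the same on both strands, was in 17 of the 93 genes (18.3%) and in 8.37% of tested genes with a window. In 4 risen genes the 2 cores overlapped. The 76 ISRE matches, in which genes with several start sites count more than once, had a median first base 53 before the start, and 54 of them began within 150 bases before it. A match describes the letters of the window and not binding of a factor, and the absence of one in H2-K1 says only that these letters are not there.

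**Figure D2:**
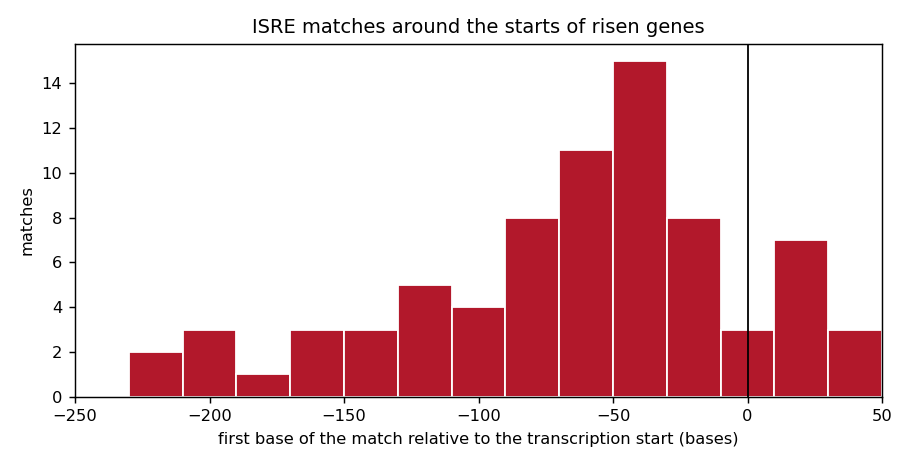
Distance in bases between the start site and the first base of each ISRE core match in the windows of the risen genes, as a count of matches per bin. Most of the 76 matches lie just before the start, with a median at -53.

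Among ligands, receptors and signal transducers of the interferon system 3 of 13 tested members rose in THOC5 cells, with a median log2 change of 0.19, and none fell. For this and each interferon list below, the share over all tested genes was 0.532% risen and 0.00886% fallen. Ifnb1, which encodes interferon beta, was near the detection limit, with 5 and 9 reads in THOC5 osteogenic libraries, against 2 and 0 reads in THOC5 growth libraries. The pooled ratio was 6.73 (95% counting interval 1.55 to 61.0), and the change did not pass the test (adjusted p = 0.694). In GFP cells it had 31 and 44 reads in osteogenic libraries, against 2 and 0 in growth libraries, a ratio of 26.6 (7.10 to 223). The difference between the responses did not pass (log2 -2.12, adjusted p = 0.23).

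The receptor chains Ifnar1 and Ifnar2 had log2 changes of 0.00 and 0.19 (adjusted p = 1 and 0.875). Stat2, a transducer of the pathway, had 3595 and 3662 normalized counts in THOC5 osteogenic libraries, against 1897 and 1554 in THOC5 growth libraries, and rose 2.11-fold (adjusted p = 0.00138). Usp18, which strips ISG15 from proteins and dampens the receptor, rose 2.56-fold (adjusted p = 5.62e-04), while Socs1, another inhibitor, did not pass (log2 change 0.78, adjusted p = 0.453). The media did not overlap for Stat2 or Usp18, and Irf9, the DNA-binding part of that complex, missed the threshold (log2 change 0.46, adjusted p = 0.118).

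Nucleic acid sensors and interferon regulatory factors held some of the strongest calls: 8 of 19 tested members rose, none fell, all 19 had a positive change and the median was 0.57. Irf7, the factor that amplifies interferon transcription, had 2073 and 1984 normalized counts in THOC5 osteogenic libraries, against 543 and 417 in THOC5 growth libraries. Its groups lay far apart, and it rose 4.26-fold (log2 2.09, 95% interval 1.82 to 2.36, adjusted p = 2.97e-05). In GFP cells the same gene had 1790.3 and 2016 in GFP osteogenic libraries, against 632 and 713 in GFP growth libraries. Zbp1, a sensor of Z-form nucleic acid, had 2103 and 2126 normalized counts in THOC5 osteogenic libraries, against 787 and 552 in THOC5 growth libraries (log2 1.68, adjusted p = 3.96e-04).

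Among the sensors of cytoplasmic RNA, Dhx58 (LGP2) had 1228 and 1301 normalized counts in THOC5 osteogenic libraries, against 550.3 and 524 in THOC5 growth libraries, and rose 2.35-fold. Ifih1 (MDA5) had 1249 and 1229.7 normalized counts in THOC5 osteogenic libraries, against 676 and 574 in THOC5 growth libraries, and rose 1.99-fold, and Ddx58 (RIG-I) had 2122 and 2117 normalized counts in THOC5 osteogenic libraries, against 1367 and 1114 in THOC5 growth libraries, and rose 1.72-fold. None of these 3 overlapped between media. Trim25, which activates RIG-I, Trim21, an antibody receptor of the cytoplasm, and Eif2ak2, the kinase PKR, rose by 0.65, 0.78 and 0.57 on the log2 scale (adjusted p = 0.0102, 0.0378 and 0.0404). Irf3, the factor that first switches on interferon beta, and Irf1 stood at 0.09 and 0.27 and did not pass (adjusted p = 0.949 and 0.875).

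The Ifi200 genes, mouse relatives of the DNA sensor IFI16, held the largest changes of all: 9 of 11 tested members rose and none fell, with a median of 1.06. Ifi208 had 99.1 and 84.5 normalized counts in THOC5 osteogenic libraries, against 5.79 and 6.69 in THOC5 growth libraries. It rose 12.8-fold on the log2(count + 1) scale (log2 3.68, SE 0.28, adjusted p = 1.25e-04). Ifi206 had 334 and 329 normalized counts in THOC5 osteogenic libraries, against 43.4 and 23.9 in THOC5 growth libraries (log2 3.32, adjusted p = 1.09e-04). Growth libraries of both genes were low, and in neither did the media overlap. Ifi207 had 729.7 and 739.7 normalized counts in THOC5 osteogenic libraries, against 214 and 141 in THOC5 growth libraries (log2 2.07, adjusted p = 4.84e-04). Ifi213 rested on 17 and 17 reads in THOC5 osteogenic libraries, against 0 and 1 reads in THOC5 growth libraries, a ratio of 32.7 with a counting interval of 5.49 to 1329. Ifi203, Ifi204, Ifi205, Ifi211 and Mndal rose by 0.75 to 1.34 on the log2 scale, and the cytoplasmic DNA sensor Aim2 did not pass (log2 change 0.64, adjusted p = 0.928). These genes resemble each other closely, so reads could have been shared out between them.

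Genes of the 2′-5′-oligoadenylate synthetase (OAS) family, enzymes that make a signalling nucleotide on meeting double-stranded RNA, made up the next list, in which 7 of 10 tested members rose, with a median of 1.49. Oas1a had 559 and 528 normalized counts in THOC5 osteogenic libraries, against 212 and 199 in THOC5 growth libraries, and rose 2.64-fold (adjusted p = 1.09e-04). Oas3 had 794 and 720.0 normalized counts in THOC5 osteogenic libraries, against 229 and 174 in THOC5 growth libraries, and Oas2 had 1076 and 958 normalized counts in THOC5 osteogenic libraries, against 339 and 250.2 in THOC5 growth libraries. Their log2 changes were 1.92 and 1.80 (adjusted p = 3.38e-04 and 3.68e-04), and their media did not overlap. In GFP cells Oas2 rose by 0.59, and the THOC5 response was larger by 1.21 (adjusted p = 0.00862). Oas1b, Oas1g, Oasl1 and Oasl2 also rose, by 1.20 to 2.31, and Oas1b is annotated as a polymorphic pseudogene.

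Direct antiviral effectors formed the longest interferon list, with 22 of 36 tested members risen, 1 fallen and a median of 0.96. Rsad2 (viperin), which makes a chain-terminating nucleotide, had 1403 and 1249 normalized counts in THOC5 osteogenic libraries, against 329 and 149.9 in THOC5 growth libraries. Cmpk2, its neighbour, which supplies the substrate, had 398 and 289 normalized counts in THOC5 osteogenic libraries, against 87.9 and 62.1 in THOC5 growth libraries. They rose 5.93-fold and 4.54-fold (adjusted p = 0.00109 and 6.02e-04), although the THOC5 growth libraries of Rsad2 differed from each other by more than its osteogenic libraries did. In GFP cells Rsad2 reached 3481 and 4250.3 in GFP osteogenic libraries, against 358 and 497 in GFP growth libraries, and the difference between the responses did not pass (-0.62, adjusted p = 0.396).

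The IFIT proteins hold back foreign messenger RNA at translation. Ifit1 had 5460.5 and 5019 normalized counts in THOC5 osteogenic libraries, against 1701 and 1232 in THOC5 growth libraries, and rose 3.61-fold (adjusted p = 5.62e-04). Ifit3 and Ifit3b, near-identical copies that could share reads, rose by 2.46 and 2.49 on the log2 scale, whereas Ifit2 did not pass (log2 change 0.75, adjusted p = 0.107). Mx2, of a family of GTPases that trap viral particles, had 319.9 and 323 normalized counts in THOC5 osteogenic libraries, against 146 and 76.4 in THOC5 growth libraries (adjusted p = 0.00935). The reference annotation lists Mx2 as a polymorphic pseudogene, so a working protein in these cells is not known. Its relative Mx1 did not pass (log2 change 2.55, adjusted p = 0.125). Bst2 (tetherin), which holds budding virus at the cell surface, had 3930.2 and 3629.8 normalized counts in THOC5 osteogenic libraries, against 1737 and 1361 in THOC5 growth libraries, and rose 2.46-fold. Of 5 listed plasmacytoid dendritic cell markers 3 were tested, and Bst2 was the only one that rose. Ifitm3, which blocks entry through endosomes, rose by 0.52 (adjusted p = 0.0199), with 5452 and 5726 normalized counts in THOC5 osteogenic libraries, against 4048 and 3738 in THOC5 growth libraries. Ifi27l2a rose by 1.33 in THOC5 cells and Slfn8 by 1.25. In GFP cells their changes were 0.09 and 0.03, and the differences passed (adjusted p = 0.00614 and 0.0297). Lgals3bp, a secreted galectin-binding protein, rose by 0.92 in THOC5 cells and stood at 0.20 in GFP cells (difference adjusted p = 0.00691).

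All 5 genes of ISG15 conjugation rose, with a median of 1.06. Isg15, the ubiquitin-like protein itself, had 1756 and 1637 normalized counts in THOC5 osteogenic libraries, against 539.7 and 463 in THOC5 growth libraries. The group means were 1696 ± 83.9 and 501 ± 54.1 normalized counts (SD, n = 2 each), and the 3.39-fold rise had the smallest adjusted p of the members described (2.64e-05). Uba7, Ube2l6 and Herc6 are the activating, conjugating and ligating enzymes of the pathway in the mouse. Uba7 had 1043 and 955 normalized counts in THOC5 osteogenic libraries, against 508 and 527 in THOC5 growth libraries (log2 0.95, adjusted p = 0.012), and Ube2l6 and Herc6 rose by 1.06 and 1.01. In GFP cells Uba7 stood at -0.15, and the THOC5 response was higher by 1.10 (adjusted p = 0.00851).

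Guanylate-binding proteins and immunity-related GTPases attack the membranes around intracellular microbes and respond to both types of interferon. Of 17 tested members 11 rose and none fell, with a median of 1.08. Gbp3 had 1699 and 1537 normalized counts in THOC5 osteogenic libraries, against 690.3 and 563 in THOC5 growth libraries, and rose 2.59-fold (adjusted p = 0.00113). Igtp had 821 and 742 normalized counts in THOC5 osteogenic libraries, against 354 and 263 in THOC5 growth libraries, and Iigp1 had 4594 and 4021 normalized counts in THOC5 osteogenic libraries, against 1794 and 1534 in THOC5 growth libraries. They rose 2.56-fold and 2.59-fold. Tgtp1 rose by 1.87 and its near-copy Tgtp2 stood at 0.16 without passing. Gbp2, Gbp4, Gbp5, Gbp7, Gbp9, Irgm1 and Irgm2 rose by 0.89 to 1.31 on the log2 scale.

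MHC class I presentation, the display of protein fragments to killer T cells, rose by smaller factors: 13 of 23 tested members rose, none fell and the median was 0.62. H2-K1, a classical heavy chain, had 3818 and 3651 normalized counts in THOC5 osteogenic libraries, against 1727 and 1665 in THOC5 growth libraries. Its replicates were tight, and it rose 2.20-fold (log2 1.14, SE 0.08, adjusted p = 9.39e-05). The GFP response was 0.70, and the THOC5 response was larger by 0.44 (adjusted p = 0.0335). B2m, the shared light chain, had 13018 and 12892 normalized counts in THOC5 osteogenic libraries, against 8839 and 8027 in THOC5 growth libraries, and rose 1.54-fold. The immunoproteasome subunits Psmb8 and Psmb9 rose by 0.94 and 1.12, and Psmb10 did not pass (log2 change 0.56, adjusted p = 0.0661). The peptide transporter Tap1 and the loading factor Tapbp rose by 0.83 and 0.51, whereas Tap2 did not pass (log2 change 0.30, adjusted p = 0.827). Nlrc5, the activator of class I transcription, rose by 0.94 (adjusted p = 0.0224). The H2-Q genes H2-Q4, H2-Q6 and H2-Q7 rose by 0.92 to 1.58, but they and H2-D1, H2-T22 and H2-T23 are similar in sequence and their separate values are uncertain.

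Interferon-induced PARPs, enzymes that attach ADP-ribose to proteins, and their partners rose in 6 of 8 tested members with a median of 0.82. Parp14 had 1972 and 1844 normalized counts in THOC5 osteogenic libraries, against 1018 and 775 in THOC5 growth libraries, and rose 2.15-fold (adjusted p = 0.00265). Parp10, Parp11, Parp12 and Parp9 rose by 0.78 to 0.93, and Dtx3l, the ubiquitin ligase that binds Parp9, by 0.94. Over the 9 interferon lists together 141 of 154 listed genes were tested, of which 83 rose and 1 fell, beside 0.532% and 0.00886% of all tested genes. The combined median was 0.92, and 133 of the 141 changes were positive. In GFP cells 80 of the 141 rose and 13 fell, beside 10.3% and 10.6% of all genes, with a median of 0.56. These lists were drawn up with results of these data known.

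Chemokines, which draw leukocytes, moved less: 2 of 17 tested members rose, beside 0.532% of all tested genes, and none fell, with a median of 0.21. Ccl5 had 432 and 383 normalized counts in THOC5 osteogenic libraries, against 153 and 141 in THOC5 growth libraries, and rose 2.76-fold (log2 1.46, adjusted p = 1.09e-04). In GFP cells it had 1098 and 969 in GFP osteogenic libraries, against 207 and 211 in GFP growth libraries, so both GFP osteogenic libraries were the highest of the 8. Cxcl10 had 311 and 213 normalized counts in THOC5 osteogenic libraries, against 105 and 64.9 in THOC5 growth libraries (log2 1.63, adjusted p = 0.00475), and it passed in 26 of 35 alternative settings; limma on all tested genes lost the call without either THOC5 osteogenic library, THOC5 growth replicate 2 or any 1 GFP library, whereas edgeR and limma on genes averaging at least 10 normalized counts kept it in each omission. In GFP cells Cxcl10 had 941 and 1079 in GFP osteogenic libraries, against 93.2 and 97.0 in GFP growth libraries. The THOC5 response minus the GFP response was -0.83 for Ccl5 and -1.77 for Cxcl10 (adjusted p = 0.0077 and 0.00605), the only risen genes with a response called lower than in GFP cells. Ccl2, the monocyte attractant, did not pass in THOC5 cells (log2 change 0.40, adjusted p = 0.248). Among 22 tested genes of NF-kB inflammation none passed (median 0.01), a count that says little beside the 0.540% of all genes called.

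Of the 120 risen genes, 34 stood on no list, and those named in the next sentences were chosen after their values were seen. Ly6e, a membrane protein known to block coronavirus entry, had 4328 and 4078 normalized counts in THOC5 osteogenic libraries, against 1795 and 1809 in THOC5 growth libraries, and rose 2.33-fold (adjusted p = 9.39e-05). Cd274, the checkpoint ligand PD-L1, had 206 and 189 normalized counts in THOC5 osteogenic libraries, against 114 and 78.3 in THOC5 growth libraries (log2 1.05, adjusted p = 0.0123). Both were separated between media. Mpeg1, a pore-forming perforin relative, rose by 1.62, the helicase Ddx60 by 1.31, Helz2 by 0.99, and Il18bp, a secreted decoy for interleukin 18, by 1.05. Adar, which edits double-stranded RNA, rose by 0.60 (adjusted p = 0.00919), and Pml and Daxx, proteins of nuclear bodies, by 0.63 and 0.79. Mlkl, the executioner of necroptosis, had 791 and 756 normalized counts in THOC5 osteogenic libraries, against 526 and 537 in THOC5 growth libraries (log2 0.54, adjusted p = 0.0129). The library kit did not mark strand, so overlapping genes on opposite strands could not be told apart.

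**Figure D3:**
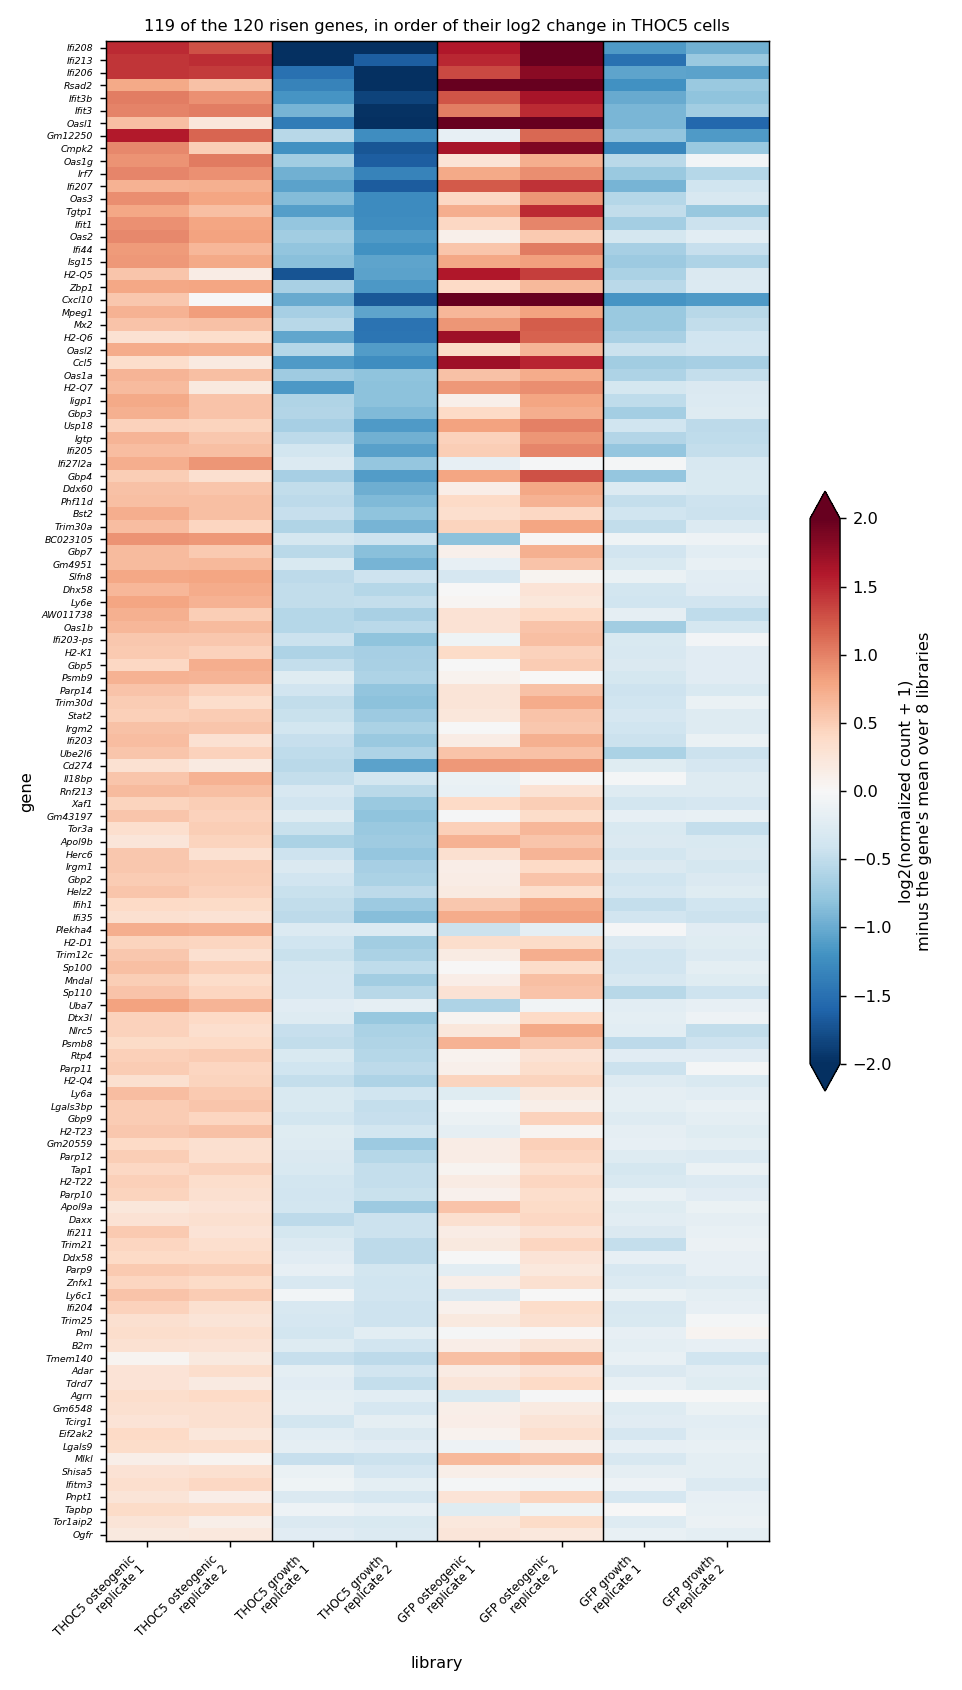
Risen genes in rows (119 of the 120) and the 8 libraries in columns, THOC5 osteogenic left of THOC5 growth and GFP osteogenic left of GFP growth; colour gives log2(normalized count + 1) relative to each gene's mean over the libraries. Both osteogenic THOC5 columns are above both growth columns for each gene drawn.

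Only 2 genes fell. Ifi27, itself an interferon-induced gene of the mitochondrial and nuclear membranes, had 296 and 366 normalized counts in THOC5 osteogenic libraries, against 879 and 918 in THOC5 growth libraries. It dropped by 1.44 on the log2 scale (SE 0.15, adjusted p = 7.75e-04), opposite to the 22 risen effectors, and in GFP cells by 0.70 (adjusted p = 0.00635). Without THOC5 osteogenic replicate 1 its adjusted p was 0.0684, and without GFP growth replicate 1 or 2 it was 0.0747 or 0.0743. Mitochondrial mt-Cytb, cytochrome b of the respiratory chain, had 18524 and 19426 normalized counts in THOC5 osteogenic libraries, against 27769 and 28732 in THOC5 growth libraries. It dropped by 0.57 (adjusted p = 0.0218). Its GFP change was -0.84 (adjusted p = 1.62e-04 in limma), and the difference between the responses did not pass (adjusted p = 0.284). The THOC5 call held in 22 of 35 alternative settings. Limma on all tested genes lost it without any 1 of the THOC5 libraries or either GFP growth library, and edgeR lost it without THOC5 osteogenic replicate 1. The 10 tested mitochondrial genes had a median of -0.36, and mitochondrial reads made up 1.82 ± 0.108% of THOC5 osteogenic libraries and 2.23 ± 0.0096% of THOC5 growth libraries (SD, n = 2 each); the part of that share in the mt-Cytb result was not tested. Some further genes passed as lower in the count models alone. Scg2, a secreted granule protein, stood at -1.04 with an adjusted p of 0.0505 in limma, 8.29e-04 in edgeR and 0.00214 in DESeq2. Itga8, an integrin of smooth muscle, stood at -0.83 with adjusted p of 0.268, 0.0250 and 0.0163 in the same tests.

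The phosphate treatment is used to turn smooth muscle towards bone, but no gene of the contractile, osteochondrogenic or calcification lists passed in THOC5 cells. None of 26 tested contractile genes passed, a count that the share of 0.540% over all genes makes unremarkable, with a median of -0.18 and 24 of 26 changes negative. Acta2 had 20106 and 21961 normalized counts in THOC5 osteogenic libraries, against 25293 and 25005 in THOC5 growth libraries (log2 change -0.26, adjusted p = 0.872). Myh11, the smooth muscle myosin, had 95.4 and 113 normalized counts in THOC5 osteogenic libraries, against 131 and 158 in THOC5 growth libraries (log2 change -0.47, adjusted p = 0.827). In both genes the 2 osteogenic libraries lay below the 2 growth libraries, but the differences did not pass. Tagln, Cnn1 and Mylk stood at -0.54, -0.18 and -0.62 (adjusted p = 0.454, 0.918 and 0.478), and Mylk, the myosin light chain kinase, passed in DESeq2 (adjusted p = 0.0362). In GFP cells 22 of the 26 fell, beside 10.6% of all genes, with a median of -0.70, and the difference between the responses passed for 13, all higher in THOC5 cells, beside 5.30% of all genes.

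None of 21 osteochondrogenic genes passed either (median -0.09). With 0.540% of all genes called, that count says little, and the same holds for the 23 genes of calcification and phosphate handling below. Runx2, the master regulator of bone formation, had 696 and 603 normalized counts in THOC5 osteogenic libraries, against 830.3 and 648 in THOC5 growth libraries (log2 change -0.18, adjusted p = 0.928), and Sp7, its partner, had 3 and 3 reads in THOC5 osteogenic libraries, against 1 and 0 in THOC5 growth libraries. Alpl, the phosphatase that frees phosphate for mineral, had 63.6 and 72.3 normalized counts in THOC5 osteogenic libraries, against 65.6 and 78.3 in THOC5 growth libraries (log2 change -0.08, adjusted p = 0.982), with a 95% interval of -0.55 to 0.39 on the log2 scale. For Runx2 and Alpl the media overlapped. Spp1 (osteopontin) and Bmp2 stood at 0.36 and 0.05 (adjusted p = 0.928 and 1). Among 23 genes of calcification and phosphate handling none passed (median -0.0049): Mgp, a mineral inhibitor, stood at -0.02, Enpp1, which makes the inhibitor pyrophosphate, at 0.33, and Slc20a1, a phosphate importer, at -0.14. The sign of the last list's median and of Mgp turned when values were scaled to library totals. In GFP cells Alpl changed by -2.26, Mgp by -1.33 and Slc20a1 by 0.86, and all 3 differences between the responses passed (adjusted p = 0.00188, 8.05e-04 and 0.00941).

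Matrix genes fell in GFP cells, and the responses differed. Of 43 tested matrix genes 33 had a negative change in THOC5 cells (median -0.12) and none passed, beside 0.540% of all genes. In GFP cells 39 of the 43 fell (median -1.08), beside 10.6% of all genes, and the difference passed for 30, all higher in THOC5 cells, beside 5.30%. Lum, the collagen-binding proteoglycan lumican, had 528 and 544 normalized counts in THOC5 osteogenic libraries, against 768 and 883 in THOC5 growth libraries, and 39.8 and 75.1 in GFP osteogenic libraries, against 539.6 and 400.1 in GFP growth libraries. Its THOC5 change of -0.62 did not pass and its GFP change of -3.06 did (difference adjusted p = 0.00172). Fbn2 and Col12a1 came closest among the matrix genes in THOC5 cells (-0.71 and -0.52, adjusted p = 0.127 and 0.19). Antioxidant targets of the factor NRF2 were called in GFP cells too, with 27 of 34 risen, beside 10.3% of all genes (median 1.22), and none passed in THOC5 cells (median 0.07). Hmox1, haem oxygenase, had 7484 and 7167 normalized counts in THOC5 osteogenic libraries, against 5379 and 5865 in THOC5 growth libraries, and 34528 and 27827 in GFP osteogenic libraries, against 6667 and 7568 in GFP growth libraries. The THOC5 change was 0.38 (adjusted p = 0.528), and the difference from the GFP response was -1.74 (adjusted p = 3.16e-04).

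Stress genes rose in GFP cells, while their lists held no call in THOC5 cells, where only 0.540% of all genes were called. Among 29 p53 targets 18 rose in GFP cells, beside 10.3% of all genes (medians 0.04 in THOC5 and 0.49 in GFP cells). Mdm2, the inhibitor of p53, stood at 0.29 in THOC5 and 1.44 in GFP cells, a difference that passed (adjusted p = 0.00134). Among 33 genes of the integrated stress response, which restores amino acid supply, 16 rose in GFP cells, beside the same 10.3% (medians -0.14 in THOC5 and 0.94 in GFP cells). Asns, asparagine synthetase, had 704 and 652 normalized counts in THOC5 osteogenic libraries, against 1411 and 669 in THOC5 growth libraries, and 3381 and 2561 in GFP osteogenic libraries, against 1134 and 683 in GFP growth libraries. Its THOC5 change was -0.52 and its GFP change 1.74 (difference adjusted p = 0.0085), but THOC5 growth replicate 1 stood apart as high. Without that library the THOC5 change of Asns was 0.02 and the median of the stress response list 0.08, with 21 of 33 members positive in place of 11. Hypoxia and glycolysis genes were positive in 28 of 30 tested members with a median of 0.29, and none passed, but without the same library 20 of 30 were positive and the median was 0.04. Ldha, lactate dehydrogenase, had 9395 and 9259 normalized counts in THOC5 osteogenic libraries, against 6408 and 9654 in THOC5 growth libraries, where replicate 1 of growth alone was low, and Hk2, the first enzyme of glycolysis, came closest (log2 change 0.42, adjusted p = 0.424). No member passed among the 44 cell cycle, 41 oxidative phosphorylation, 48 ribosomal protein, 27 THO and export, 29 TGF-beta, 26 Wnt, 13 Notch and 40 ion channel genes tested; with 0.540% of all genes called, a count of 0 in lists of this size says little about them. The count models added at most 2 lower members to the contractile and matrix lists and up to 4 to the mitochondrial list.

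**Figure D4:**
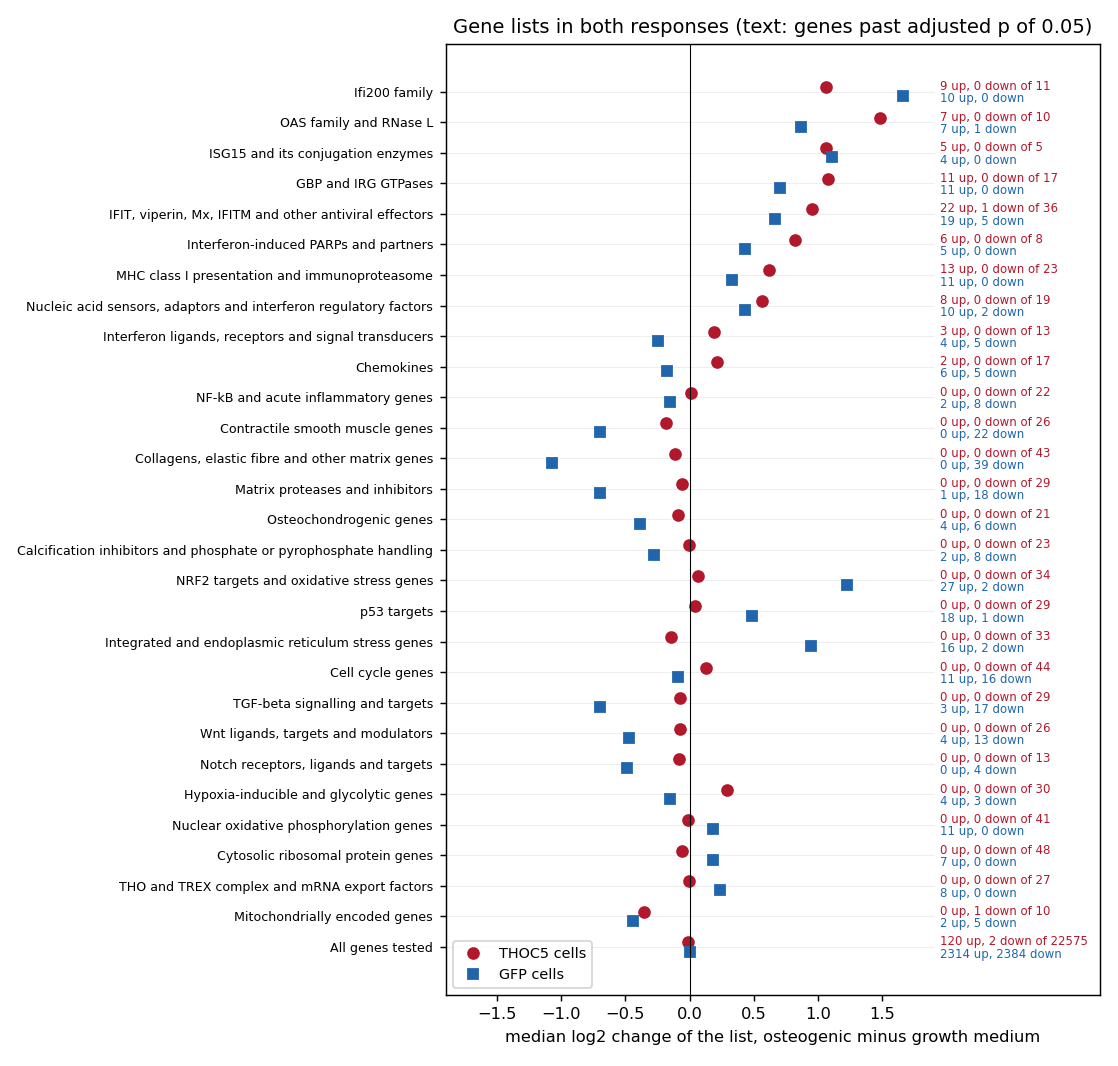
Median log2 change of each gene list, with the THOC5 response above the GFP response in each row, on a linear axis. The interferon lists lie right of 0 in both, apart from ligands and receptors in GFP cells (-0.24), while the contractile (-0.18 in THOC5 and -0.70 in GFP cells) and matrix (-0.12 and -1.08) lists are far from 0 in GFP cells and near it in THOC5 cells.

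Set against the GFP response, in which 4698 genes passed (20.8%, with 2314 risen, 10.3%, and 2384 fallen, 10.6%), the THOC5 response held fewer calls. The 2 comparisons share no library, though they share the estimate of spread. Of the 120 genes that rose in THOC5 cells, 95 (79.2%) also rose in GFP cells and 115 were positive there. That share rested in part on GFP osteogenic replicate 2: without it, it was 51.5% of the genes then called as risen in THOC5 cells, 57.8% in limma on genes averaging at least 10 normalized counts and 57.9% in edgeR. Those 95 were 4.11% of the 2314 that rose in GFP cells. The remaining 25 were not called in GFP cells, and none fell. The median change of the 120 was 1.05 in THOC5 and 0.70 in GFP cells, and 101 were larger in THOC5 cells, a direction that their choice in THOC5 cells favours.

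The difference between the responses passed for 2082 genes (9.22%), with 1197 higher (5.30%) and 885 lower (3.92%) in THOC5 cells. Among the 120 risen genes it passed for 21, with 19 higher in THOC5 cells, 2 lower (Ccl5 and Cxcl10) and 99 not called. The choice of the 120 as risen in THOC5 cells favours the higher side. The 19 took in Oas2, Dhx58, H2-K1, H2-T23, Psmb9, Tapbp, Uba7, Lgals3bp, Ifi27l2a, Slfn8 and Ly6a, the surface antigen SCA-1, which also stood on the fibroblast list. Ly6a had 3519 and 3306 normalized counts in THOC5 osteogenic libraries, against 1853 and 1749.6 in THOC5 growth libraries, and 1934 and 2618 in GFP osteogenic libraries, against 2028 and 1993 in GFP growth libraries. With all libraries, the 19 kept the call in edgeR and in limma on genes averaging at least 10 normalized counts, and 15 kept it with scaling to library totals. Limma on all tested genes lost every one of these calls without either GFP growth library, whereas edgeR and the filtered limma kept most of them. It also lost most of them without either THOC5 osteogenic library. An ISRE core was present in 3 of the 13 genes with a window among the 19 (23.1%). Among the risen genes without a called difference it was present in 47 of 79 with a window (59.5%). Conversely, genes that rose in GFP cells had a median THOC5 change of 0.0003 and the same sign in 50.1%, and genes that fell had a median of -0.04 and the same sign in 60.7%. The difference passed for 871 (37.6%) of those risen and 1145 (48.0%) of those fallen in GFP cells. It uses the same GFP libraries by which these genes were chosen, which raises both shares.

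**Figure D5:**
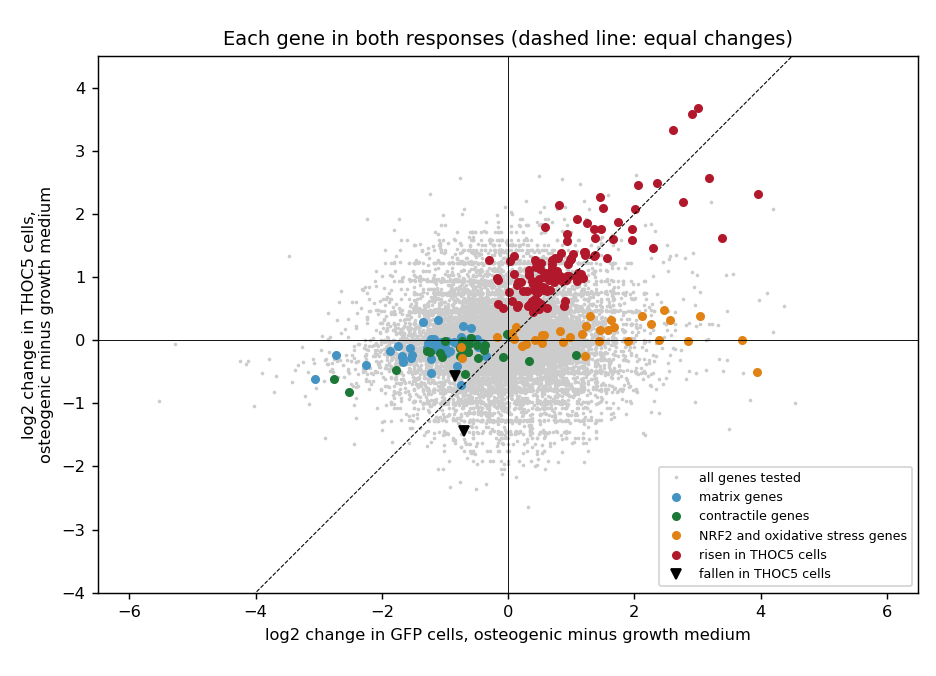
Log2 change in THOC5 cells (vertical) against that in GFP cells (horizontal) for each tested gene, with genes risen in THOC5 cells in red, the 2 fallen as black triangles, matrix genes in blue, contractile in green and NRF2 genes in orange; the dashed line marks equal changes. The 120 risen genes lie above 0 on the vertical axis, and 115 of them right of 0 on the horizontal axis.

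The risen genes also differed together between replicates of 1 group. In THOC5 growth libraries replicate 1 was higher than replicate 2 for 106 of 120, with a median log2 ratio of 0.23, against 11540 of 22575 tested genes and a median of 0.008. Between the osteogenic replicates 86 of 120 were higher in replicate 1, with a median of 0.06. In GFP cells the order was the other way: replicate 1 was higher for 11 of 120 in osteogenic libraries (median -0.26) and for 34 in growth libraries (median -0.08), against 10252 and 10748 of all tested genes. The spread between replicates enters each test, and limma called 44 genes without THOC5 growth replicate 2 and 84 without THOC5 growth replicate 1. Cxcl10 showed the pattern plainly, at 105 and 64.9 normalized counts in the 2 THOC5 growth libraries.

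Many risen genes neighboured each other in the genome. With neighbours counted as risen genes at most 200 kb apart, 67 of the 120 fell into 20 groups in the GENCODE annotation of GRCm38. No such count was made for other genes. The Ifi200 genes and their neighbours at chr1:173468485-174031810 held 10 risen genes, and the class I region at chr17:33909414-34201454 held 6 of 21 tested genes averaging at least 10 normalized counts. At chr17:35262730-35443773 it was 5 of 6, and the Oas genes at chr5:120730333-120907521 also had 5 of 6. The guanylate-binding proteins at chr3:142493978-142638008 had 4 of 4, and chr4:156165290-156205151, around Isg15, had 3 of 3. The Ifit genes at chr19:34583531-34650009 had 3 of 5. Each span ran from the first to the last risen gene of its group, so its edges were risen genes and its share was raised by construction. Chromosomes 1, 11 and 17 each held 15 of the 120 (12.5%), beside 7.02%, 7.43% and 4.46% of all tested genes with a position. Many of these neighbours are near-identical copies, for which the count of separate genes is uncertain.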

How the data were processed

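The study measured polyadenylated RNA in 8 libraries, 2 in each of 4 groups; RNA immunoprecipitation libraries named in its design were not analysed here. The deposited table gives a signal per gene, read counts divided by 1 size factor per library by the authors, as the values show: 100% of them are whole multiples of a library's step, within 1.34e-09 of a read, and the reads so recovered went into edgeR 4.0.16 and DESeq2 1.42.0 as alternatives. It also holds, per the file headers, the authors' log2 fold changes, p-values and test statistic scores, of which only the calls of the THOC5 comparison were used. FastQC, Bowtie2, MACS2, SAMtools and the build mm10 are named in the submitters' processing notes without versions or roles; how reads were trimmed, counted and annotated was not stated in any source used here. THOC5 growth libraries were matched to their columns through the sample descriptions.

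Values were tested with limma 3.58.1 (R 4.3.3) on log2(value + 1), with mean-variance trend, 4 group means over all 8 libraries (4 residual degrees of freedom) and Benjamini-Hochberg adjustment at 0.05; fold changes are on that scale and understate those of low genes. Of 929 genes on 44 lists 876 were in the table and 847 were tested. Named were Thoc5, 13 core genes, the 12 largest risen and all fallen genes averaging at least 50 normalized counts over the THOC5 libraries, called list members, up to 4 members of lists without a call, and the 6 highest and 6 lowest differences; others were chosen after their values were seen, and a few genes are not reported here. The members and lists were chosen with earlier results of these data known. Gene positions came from the GENCODE annotation (release M21) of GRCm38 and promoters from RefSeq's table of GRCm38.p6. The scripts were tested on simulated data. Scaling, pseudocount, filter, test, replicate block and each library's omission were varied.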

Additional observations from a re-analysis of the deposited data

Results flagged for a closer look

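The THOC5 response minus the GFP response passed limma's test for 31 named genes, 23 of them higher and 8 lower in THOC5 cells. This count leaves out genes named only as members of lists without a call and those chosen after their values were seen. Lum, Hmox1, Mdm2 and Asns, whose differences also passed, are therefore not among the 31. Over all tested genes it passed for 9.22%, with 5.30% higher and 3.92% lower. The genes with the largest differences were chosen among genes that passed, so the count of 31 measures no share. Each value is a log2 difference. Interferon and antigen presentation genes that rose in THOC5 cells made up 1 group, with 1.24 for Ifi27l2a, 1.22 for Slfn8, 1.21 for Oas2, 1.10 for Uba7, 0.80 for Dhx58, 0.79 for Psmb9, 0.76 for Ly6a, 0.72 for H2-T23, 0.72 for Lgals3bp, 0.59 for Tapbp and 0.44 for H2-K1, while the chemokines stood at -0.83 for Ccl5 and -1.77 for Cxcl10. Contractile genes that did not pass limma in THOC5 cells differed by 2.14 for Mylk, 1.32 for Myh11, 1.06 for Cnn1 and 0.79 for Acta2. Of these Mylk passed as lower in DESeq2 in THOC5 cells. Among genes of mineral handling the difference was 2.18 for Alpl, 1.31 for Mgp and -0.996 for Slc20a1.

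The genes with the largest differences were 5.22 for A2m, 4.57 for Clca3a2, 3.92 for Serpina3i, 3.79 for Kif26b, 3.50 for Hp and 3.38 for Draxin on the higher side. On the lower side stood -4.44 for Slc7a11, -2.81 for Atf3, -2.66 for Gsta3, -2.49 for Psph and -2.43 for Prl2c2. A2m, a protease inhibitor of plasma, had 508 and 522 normalized counts in THOC5 osteogenic libraries, against 365 and 788 in THOC5 growth libraries, and 8.65 and 19.7 in GFP osteogenic libraries, against 435 and 691 in GFP growth libraries, so the GFP osteogenic libraries were low and the other 6 overlapped in range. Slc7a11, the cystine importer, had 75.4 and 60.1 normalized counts in THOC5 osteogenic libraries, against 155 and 59.2 in THOC5 growth libraries, and 2199 and 1735 in GFP osteogenic libraries, against 158 and 101 in GFP growth libraries. The THOC5 changes of A2m and Slc7a11 did not pass (adjusted p = 1 and 0.928).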

How the results depend on the processing

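The number of calls depended on the setting; the direction of the risen genes, whose media did not overlap, could not turn under these settings and is no sign of stability. The THOC5 count of 122 stayed within 117 to 126 under library-total scaling, TMM scaling and pseudocounts of 0.5 or 4, and no scaling moved the median of all genes by over 0.1 on the log2 scale. With every gene above 0 tested, it was 37 (36 higher), the interferon lists held 29 risen members in place of 83, and the difference between responses passed for 1122 genes. With only the 4 libraries compared, 2 residual degrees of freedom remained and limma called 0 genes, 0 of them higher and 0 in the interferon lists (1788 at an unadjusted p under 0.05), and 2293 in GFP cells. Leaving out 1 library at a time gave 8 to 106 THOC5 calls (8 to 101 higher), 6 to 74 interferon members, 2067 to 4496 GFP calls and 0 to 1751 differences; the lowest THOC5 and difference counts came without a GFP growth library, where limma's total degrees of freedom were 6.10. Added after seeing the data, the same omissions gave 69 to 170 THOC5 calls (68 to 148 higher) with limma on genes averaging at least 10 normalized counts, where the difference passed for as few as 1237 genes, and 74 to 168 (73 to 147 higher) with edgeR, where GFP calls fell to 2821 and differences to 935 without THOC5 osteogenic replicate 2 and 1306 without GFP osteogenic replicate 1. Of the 120 risen genes, 70 were called in all 8 edgeR omissions, 65 in the filtered limma ones and 7 in the unfiltered ones.

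None of the changes that turned sign had passed. Mgp stood at 0.015 with library totals and 0.0021 with totals lacking the ribosomal RNA gene CT010467.1, an alternative also added after seeing the data, while edgeR and DESeq2 gave -0.059 and -0.062 for Bmp2 and -0.057 and -0.052 for Tgtp2. Over the omissions of 1 library the THOC5 changes of such genes ranged from -0.21 to 0.40 for Thoc5, -0.36 to 0.00038 for Runx2, -0.20 to 0.046 for Alpl, -0.56 to 0.66 for Bmp2, -0.037 to 0.0014 for Mgp, -0.10 to 0.76 for Enpp1, -0.29 to 0.012 for Slc20a1, -0.21 to 0.065 for Slc20a2, -0.61 to 0.50 for A2m, -1.20 to 0.18 for Slc7a11, -1.26 to 0.23 for Atf3, -1.07 to 0.10 for Psph, -1.06 to 0.0199 for Asns, -0.61 to 0.94 for Tgtp2, -0.042 to 0.0499 for Ifnar1 and -0.0048 to 0.19 for Irf3. In these results the cause was not tested. Deviations of same-numbered libraries correlated at r = -0.058 between the THOC5 media over 13253 genes, and between the other pairs of groups at -0.12 (THOC5 osteogenic with GFP growth) to 0.25 (THOC5 growth with GFP growth), so the numbers were not taken as pairs. With the replicate number as a replicate block, limma called 123 genes (120 higher), with 118 risen genes shared, and 2238 differences in place of 2082. Depth limits genes such as Ifnb1 and Sp7, which had under 10 reads in each THOC5 library.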
